A study of Mus musculus with 4 samples.

Results

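The interferon regulatory factor (Irf) family was examined in bulk RNA-seq of mouse T helper 2 (Th2) cells. Its members here were the 8 genes Irf1, Irf2, Irf3, Irf4, Irf5, Irf7, Irf8 and Irf9, found by name among the 26207 genes of the deposited table. All 8 had a row and none was removed by a filter. Of the 4 libraries, 2 were from Th2 cells given dopamine at 10 µM and 2 from Th2 cells given phosphate-buffered saline (PBS), with spleen as the labelled source of both groups. Dopamine is a catecholamine transmitter, and the series title concerns sympathetic innervation of the lung and resident memory Th2 cells. The sources used here do not give mouse strain, genotype, age, the duration of the dopamine exposure, or whether the libraries of a group came from separate mice or cultures. The p-values therefore reflect no more than the differences among these libraries, which may be technical.

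IRF proteins are transcription factors with a shared DNA-binding domain that reads interferon response elements. Irf3 and Irf7 are switched on by kinases downstream of sensors of foreign nucleic acid and drive interferon genes, and Irf9 works with STAT proteins, Stat2 among them, to carry the signal of the type I interferon receptor to interferon-stimulated genes, Irf7 among them. Irf4 and Irf8 are immune cell members that bind DNA weakly alone and act with partners such as Batf and Jun proteins. In T cells Irf4 is raised by antigen receptor signalling, and mouse T cells without it differentiate poorly into Th2 cells.

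RefSeq promoter windows on GRCm38.p6, the build that mm10 names, were matched for all 8 members, with 11 windows between them, each running from 250 bases before to 50 bases after a start site. The upstream stretches outside annotated exons are shown for Irf4 and Irf8, which are raised by receptor signalling, and for Irf7, which is raised by interferon, because these 3 members moved most. Each is written 5′ to 3′ on the strand of its gene. Capitals mark exact matches to 5 motifs searched on both strands: GAAA and GAAA with any 2 bases between them (interferon response element), TTCNNNGAA (STAT site), GGG and TTTCC with any 2 bases between them (NF-kB), TGANTCA (AP-1) and GGAAAA (NFAT core).
Irf4 chr13:30748983-30749225 (plus strand): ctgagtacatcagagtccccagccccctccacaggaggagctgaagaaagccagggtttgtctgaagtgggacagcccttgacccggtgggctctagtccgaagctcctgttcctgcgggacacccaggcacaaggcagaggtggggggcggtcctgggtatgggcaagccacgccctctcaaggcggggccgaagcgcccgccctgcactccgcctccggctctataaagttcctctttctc
Irf8 chr8:120736108-120736357 (plus strand): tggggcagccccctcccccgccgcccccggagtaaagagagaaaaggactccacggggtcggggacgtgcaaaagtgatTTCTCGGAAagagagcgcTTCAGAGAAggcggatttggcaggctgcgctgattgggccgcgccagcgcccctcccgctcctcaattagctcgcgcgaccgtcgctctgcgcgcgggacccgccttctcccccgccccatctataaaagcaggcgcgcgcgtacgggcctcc
Irf7 chr7:141266482-141266674 (minus strand): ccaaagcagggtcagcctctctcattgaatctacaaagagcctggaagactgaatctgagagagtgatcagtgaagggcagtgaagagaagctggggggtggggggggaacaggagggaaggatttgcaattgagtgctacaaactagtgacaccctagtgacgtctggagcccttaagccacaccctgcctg

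The Irf8 stretch holds a pair of STAT matches, TTCTCGGAA at bases -171 to -163 and TTCAGAGAA at bases -153 to -145 from the start site. The Irf4 and Irf7 windows hold no match, which says only that these letters are not in these windows. The first Irf9 window lies within an exon of a longer annotated Irf9 transcript and is not printed; it holds an NFAT core match on the minus strand, TTTTCC at bases -106 to -101. A STAT match, TTCCCCGAA, lies in the first Irf1 window. The Irf2 window holds an interferon response element, GAAAATGAAA, as well as an NF-kB match and a STAT match that overlaps an NFAT core match. Among 32851 promoter windows of the same length, 8.30% hold the STAT motif, 3.44% the interferon response element, 23.36% the NFAT core, 7.81% the AP-1 motif and 1.63% the NF-kB motif.

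Values are the authors' normalized read counts, in which the reads of a gene are divided by 1 size factor per library. The libraries are called dopamine A, dopamine B, PBS A and PBS B, where the letters only name columns. Reads assigned to genes numbered 5717408 to 14167357 per library, PBS A being the shallowest, and every member had at least 44 reads in each library. Helper T cell transcripts were abundant in both groups, with Cd4 at 4586 and 4749 normalized counts in the dopamine libraries and at 4271 and 4236 in the PBS libraries. Gata3, which sets Th2 identity, was at 207 and 241 normalized counts with dopamine and at 243 and 231 with PBS, and was not called. It was the only 1 of 6 Th2 markers not called, with 4 called higher and 1 lower. Over all genes, 14.3% were called higher and 7.00% lower. The higher markers were Il4, Il5, Il13 and Ccr4, and the lower was Il1rl1. Each log2 fold change is the dopamine mean minus the PBS mean of log2(value + 1), given with its standard error (SE). The test was limma's, its p-values were adjusted by Benjamini-Hochberg across all 26207 genes, and a gene is called at an adjusted p under 0.05. In bulk RNA, fewer cells of a type and less RNA per cell cannot be told apart.

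With dopamine, Irf4 rose to 1.92 times and Irf8 to 2.22 times its PBS mean, while Irf7 fell to 0.424 of its PBS mean. Irf9, which like Irf7 is raised by interferon, was lower in both dopamine libraries but did not pass the test. Irf5, Irf3 and Irf1 were called higher by smaller amounts, and Irf2 was not called. Thus 5 of 8 members were called higher, against 14.3% of all genes, and 1 of 8 was called lower, against 7.00% of all genes. A mean of at least 100 normalized counts was reached by 7 members and by 8492 genes, here called abundant genes, of which 47.0% were called, 39.1% higher and 7.90% lower. The dopamine and PBS libraries did not overlap for any of the 8 members, of which 5 were higher and 3 lower. They did not overlap for 58.9% of all genes (28.5% higher and 30.4% lower) and for 76.3% of abundant genes (60.8% higher and 15.4% lower). The median log2 fold change was 0.26 over the members, -0.08 over all genes and 0.20 over abundant genes.

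The smaller changes depended on how the libraries were scaled to each other. Of all genes called, 67.1% were higher, but 53.5% in edgeR with TMM scaling and 36.2% after rescaling the libraries on abundant genes, which shifted the median of all genes to -0.26. After that rescaling Irf4 and Irf8 were called higher and Irf2, Irf7 and Irf9 lower, while Irf1, Irf3 and Irf5 were not called. Irf4, Irf8 and Irf7 kept their calls and directions under all 13 alternatives.

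**Figure D1:**
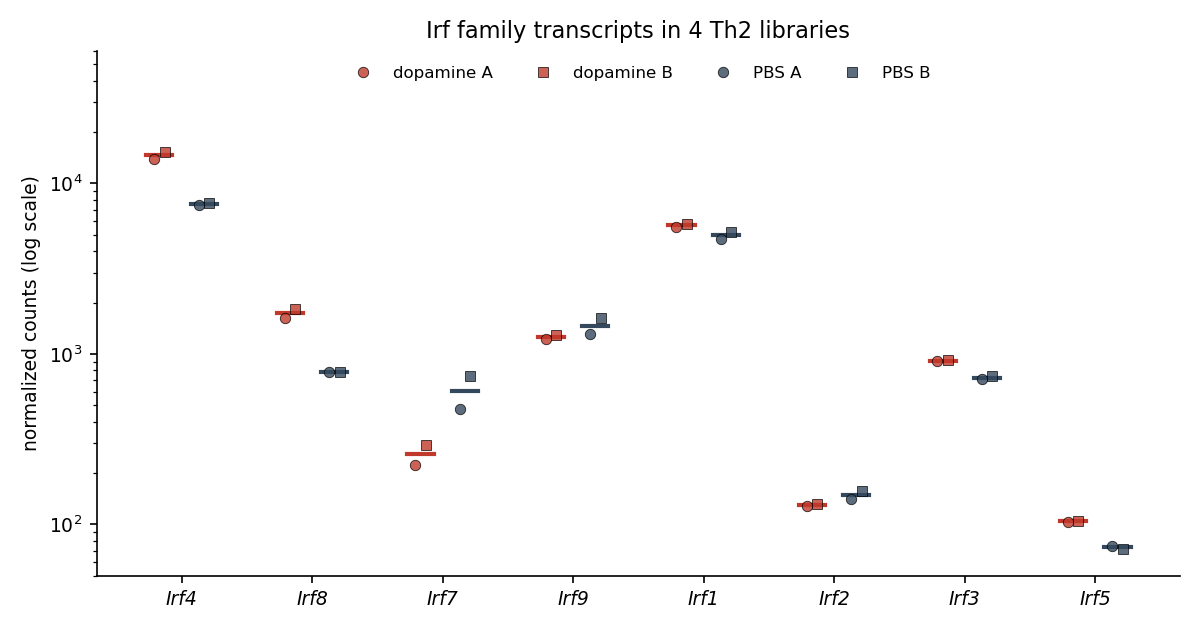
Normalized counts of the 8 Irf genes in each library (log axis), with dopamine and PBS libraries side by side for each gene and the mean of each group of 2. The dopamine libraries lie above the PBS libraries for Irf4 and Irf8 and below them for Irf7, whose PBS libraries are 1.56-fold apart.

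Irf4 (mm10 chromosome 13, 30749226 to 30766976, plus strand, GENCODE M21) was at 13931 and 15265 normalized counts in dopamine A and dopamine B, against 7520 and 7721 in PBS A and PBS B. The lower dopamine library was 1.80 times the higher PBS library, a gap far wider than that within either group. The means were 14598 ± 943 with dopamine and 7620 ± 142 with PBS (SD, n = 2 each), a log2 fold change of 0.94 (SE 0.06, 95% interval 0.82 to 1.05, limma adjusted p = 7.08e-18). The value ranged from 0.74 to 1.00 over the alternatives.

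Irf8 (chromosome 8, 120736358 to 120756694, plus strand) is best known from B cells, monocytes and dendritic cells. It was at 1626 and 1833 normalized counts in dopamine A and dopamine B, against 781 and 778 in PBS A and PBS B. The PBS libraries were nearly equal, and the lower dopamine library was 2.08 times the higher PBS library. The means were 1730 ± 146 with dopamine and 780 ± 2.65 with PBS (SD, n = 2 each), a log2 fold change of 1.15 (SE 0.08, 95% interval 0.98 to 1.31, limma adjusted p = 3.07e-15). The value ranged from 0.95 to 1.23 over the alternatives. By size of change among the 3322 abundant genes that were called higher, Irf8 ranked 75 and Irf4 ranked 129.

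Both genes are also expressed in B cells, and most but not all B cell markers moved in the same direction. Of 10 B cell markers 5 were called higher and 0 lower, against 14.3% and 7.00% of all genes. The summed level of these markers was 483 and 470 normalized counts with dopamine, against 234 and 207 with PBS. Ms4a1, which encodes CD20, was at 111 and 99.0 normalized counts with dopamine and at 32.3 and 22.2 with PBS. Pax5, the B cell lineage factor, was at 24.7 and 27.2 with dopamine and at 30.6 and 23.8 with PBS, and was not called. The B cell markers Ebf1 and Cr2 had negative log2 fold changes, at -0.15 and -0.52, and were not called. Of 5 plasma cell markers 3 were called higher and 0 lower, with sums of 3250 and 3463 normalized counts in dopamine libraries and 2558 and 2748 in PBS libraries, most of it Xbp1, without which the sums were 141 and 148 against 93.4 and 62.1. Of 8 conventional dendritic cell markers 0 were called higher and 1 lower, with sums of 277 and 279 with dopamine against 296 and 298 with PBS. The part of these cells in the Irf4 and Irf8 values was not tested.

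Irf7 (chromosome 7, 141262706 to 141266481, minus strand) was at 224 and 292 normalized counts in dopamine A and dopamine B, against 476 and 742 in PBS A and PBS B. The groups did not overlap, the lower PBS library being 1.63 times the higher dopamine library, but PBS B was 1.56 times PBS A. The means were 258 ± 48.5 with dopamine and 609 ± 188 with PBS (SD, n = 2 each), a log2 fold change of -1.21 (SE 0.13, 95% interval -1.48 to -0.94, limma adjusted p = 8.27e-10). Limma's SE draws on genes of like abundance, with 42.4 prior degrees of freedom, and in the authors' deposited table the log2 fold change was -1.24 with an SE of 0.36 and an adjusted p of 0.0038. Leaving out 1 library at a time gave -1.53 to -0.89. Among the 671 abundant genes called lower, Irf7 ranked 76 by size of change. Its spread between the PBS libraries was unusual, since only 17 of 8492 genes (0.200%) had as high a ratio of PBS B to PBS A.

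Irf9 (chromosome 14, 55603571 to 55610030, plus strand) was at 1220 and 1284 normalized counts in dopamine A and dopamine B, against 1311 and 1617 in PBS A and PBS B. The groups did not overlap, but PBS A lay closer to the dopamine libraries than to PBS B. The means were 1252 ± 44.7 with dopamine and 1464 ± 216 with PBS (SD, n = 2 each), a log2 fold change of -0.22 (SE 0.08, 95% interval -0.39 to -0.05, limma adjusted p = 0.0572). Without PBS B the value was -0.07, and without PBS A it was -0.37 and was called lower. In all, 8 of 13 alternatives called Irf9 lower.

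Irf7 can be high in plasmacytoid dendritic cells and monocytes, so their markers were examined. Over all genes, 14.3% were called higher and 7.00% lower. Of 8 plasmacytoid dendritic cell markers 2 were called higher and 2 lower, with sums of 696 and 901 normalized counts with dopamine against 703 and 817 with PBS. Most of each dopamine sum was Bst2, which is also an interferon-stimulated gene, and the other 7 markers summed to 224 and 280 with dopamine against 350 and 419 with PBS. The 2 called higher were Bst2 and Ly6d, with Ly6d at 22.4 and 20.4 with dopamine against 3.40 and 3.06 with PBS. The 2 called lower were Ccr9 and Pacsin1. Ccr9 was at 9.26 and 15.5 with dopamine against 66.2 and 75.9 with PBS. Pacsin1 was at 57.1 and 78.6 with dopamine against 124 and 142 with PBS. Siglech, a marker of plasmacytoid dendritic cells, was at 1.54 and 3.88 normalized counts with dopamine and at 0 and 4.60 with PBS. Of 9 monocyte and macrophage markers 0 were called higher and 4 lower, with sums of 243 and 248 normalized counts with dopamine, against 394 and 468 with PBS. Most of each sum was Mpeg1, at 152 and 155 with dopamine against 202 and 257 with PBS. Basophil and mast cell markers summed to 878 and 813 with dopamine against 2597 and 2216 with PBS, and 7 of 8 were called lower. Of 7 neutrophil markers 0 were called higher and 3 lower, with sums of 87.2 and 67.0 with dopamine against 307 and 329 with PBS. Nearly all of each neutrophil sum was Mpo, at 72.5 and 60.2 with dopamine against 267 and 303 with PBS. The part of these cells in the Irf7 and Irf9 values was not tested.

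Within each library the receptor-induced members were set against the interferon-induced members, a ratio that does not depend on scaling between libraries. There were 62.3 and 52.2 Irf4 counts per Irf7 count in dopamine A and dopamine B, against 15.8 and 10.4 in PBS A and PBS B. The log2 ratio was 2.15 higher with dopamine, and 1.85 to 2.45 higher when 1 library at a time was left out. The ratio of Irf8 to Irf7 was 7.27 and 6.27 with dopamine against 1.64 and 1.05 with PBS, a log2 difference of 2.36. All 4 ratios of a receptor-induced to an interferon-induced member were separated between the groups. This had to follow from the members' own values, which did not overlap between the groups, and so adds no further evidence. The ratio of Irf8 to Irf9 was 1.33 and 1.43 with dopamine against 0.596 and 0.481 with PBS, a log2 difference of 1.36. The ratio of Irf4 to Irf9 was 11.4 and 11.9 with dopamine against 5.73 and 4.77 with PBS, a log2 difference of 1.15. These ratios are of counts not divided by gene length, so only their difference between libraries can be read. Members of a pair also differed from each other. The log2 ratio of Irf7 to Irf9 was -2.44 and -2.13 with dopamine against -1.46 and -1.12 with PBS, and that of Irf4 to Irf8 was 3.10 and 3.06 against 3.26 and 3.31.

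**Figure D2:**
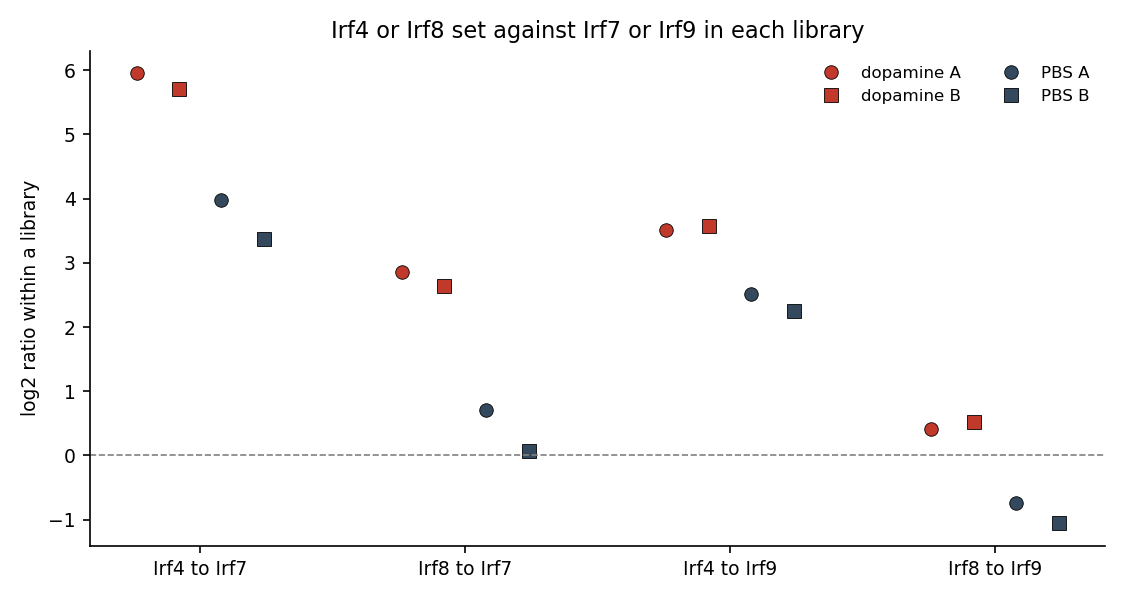
Log2 ratio of Irf4 or Irf8 to Irf7 or Irf9 within each library, dopamine libraries beside PBS libraries. For all 4 ratios both dopamine libraries lie above both PBS libraries, as the members' own values require. Counts are not divided by gene length, so the position of a ratio relative to 0 cannot be read.

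Irf1 (chromosome 11, 53770014 to 53778374, plus strand) is induced by interferon gamma and activates antigen presentation genes. It was at 5562 and 5791 normalized counts in dopamine A and dopamine B, against 4741 and 5163 in PBS A and PBS B. Both dopamine libraries were above both PBS libraries, but the gap between the groups was narrower than the spread between the PBS libraries. The means were 5677 ± 162 with dopamine and 4952 ± 298 with PBS (SD, n = 2 each), a log2 fold change of 0.20 (SE 0.06, limma adjusted p = 0.0159). This equals the median of abundant genes, and the call was lost in edgeR with TMM scaling, after rescaling on abundant genes, and without PBS A or dopamine B.

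Irf2 (chromosome 8, 46739732 to 46847458, plus strand) is known to oppose Irf1 at shared sites. It was at 128 and 132 normalized counts with dopamine and at 141 and 158 with PBS. Both dopamine libraries were lower, with a log2 fold change of -0.20 (SE 0.15, 95% interval -0.50 to 0.11, limma adjusted p = 0.388) that did not pass the test.

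Irf3 (chromosome 7, 44997648 to 45002848, plus strand), the constitutively made member that kinases of the nucleic acid sensors activate, was at 905 and 923 normalized counts in dopamine A and dopamine B, against 713 and 739 in PBS A and PBS B. The libraries of each group were close together and the groups were apart. The means were 914 ± 13.1 with dopamine and 726 ± 18.3 with PBS (SD, n = 2 each), a log2 fold change of 0.33 (SE 0.09, 95% interval 0.16 to 0.51, limma adjusted p = 0.0039). The call was lost after rescaling on abundant genes, at 0.14, and without PBS A or dopamine B, where the value was 0.31 and 0.32.

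Irf5 (chromosome 6, 29526625 to 29541871, plus strand), which acts downstream of Toll-like receptors and is best known from myeloid and B cells, was at 103 and 105 normalized counts with dopamine and at 74.7 and 72.0 with PBS. These rest on 134 and 108 reads with dopamine and on 44 and 94 reads with PBS, and the groups did not overlap. The log2 fold change was 0.50 (SE 0.18, 95% interval 0.14 to 0.86, limma adjusted p = 0.0404), and the call was lost without any 1 of the 4 libraries, in DESeq2 and in edgeR with TMM scaling. Of its exon bases, 411 (14.15%) overlap Tnpo3 on the opposite strand, which was also called higher, at 1773 and 1886 normalized counts with dopamine against 1427 and 1535 with PBS. No source used here states whether counting used strand, and reads of these genes cannot be told apart where they overlap. Smaller exon overlaps join Irf7 to Phrf1 (45 bases) and Irf9 to Rnf31 (123 bases), neither of which was called.

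**Figure D3:**
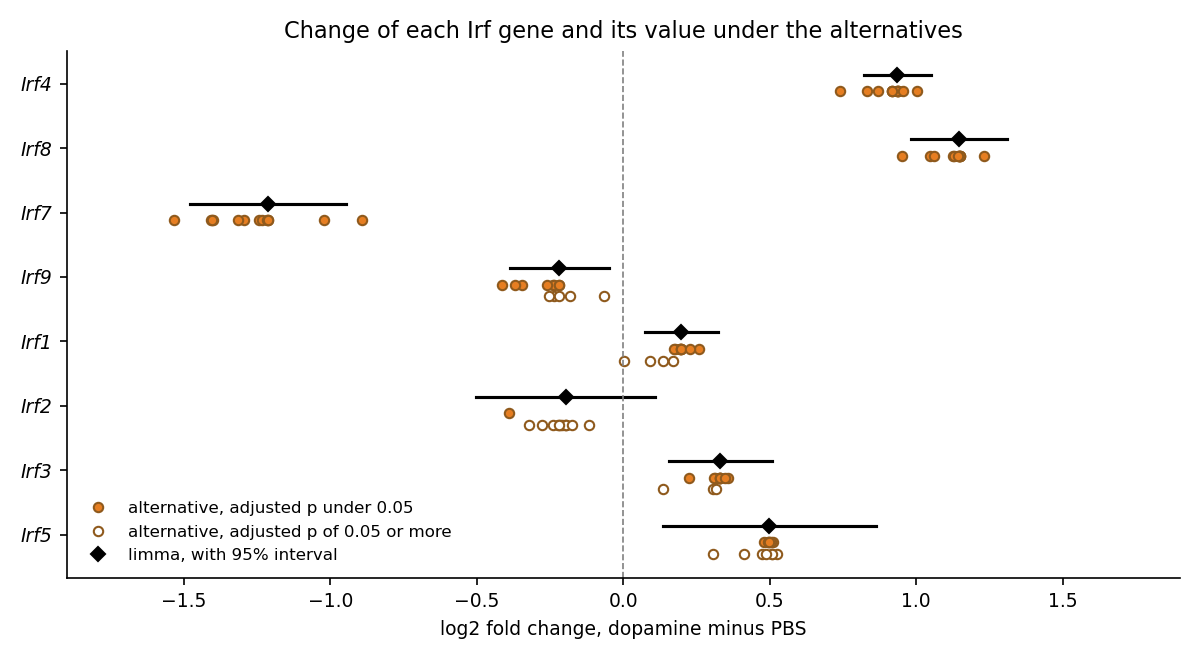
Log2 fold change of each Irf gene, dopamine minus PBS, as a diamond with its 95% interval, and under each of the 13 alternatives as a circle, filled where called. Irf4 and Irf8 lie near 1, Irf7 lies near -1.2, and the other 5 members lie between -0.22 and 0.50.

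Per kilobase of merged exons, Irf4 had the highest level in both groups. It was at 2977 ± 192 normalized counts per kilobase with dopamine and at 1554 ± 28.9 with PBS (SD, n = 2 each). Irf1 followed at 1428 ± 40.7 with dopamine and 1246 ± 75.1 with PBS. The middle of the order differed between the groups. With dopamine the next levels per kilobase were those of Irf3 (266 ± 3.80), Irf8 (245 ± 20.8) and Irf9 (232 ± 8.30), where Irf8 and Irf9 overlapped, followed by Irf7 (68.3 ± 12.8). With PBS they were Irf9 (272 ± 40.2), Irf3 (211 ± 5.32), Irf7 (161 ± 49.8) and Irf8 (110 ± 0.375), with no overlap between neighbours. Irf8 thus stood above Irf7 with dopamine and below it with PBS. Irf5 and Irf2 were lowest, at 35.8 ± 0.363 and 17.6 ± 0.382 per kilobase with dopamine and at 25.3 ± 0.663 and 20.2 ± 1.61 with PBS. The order depended on the length used. With the longest coding transcript in its place, an alternative chosen after the data were seen, Irf1 stood above Irf4 with PBS, Irf8 stood above Irf3 with dopamine, and Irf8 and Irf7 overlapped with PBS.

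Among abundant genes, profiles over the 4 libraries were compared by the distance between centred log2 values. Nearest to Irf4 were Abcc1 (distance 0.0395), Nfkbia (0.0420) and Grap (0.0506), with Nfkbia, the inhibitor that holds NF-kB in the cytoplasm, at 1375 and 1448 normalized counts with dopamine and at 722 and 745 with PBS. Nearest to Irf8 were Rab11fip4 (0.0656), Tgif1 (0.0813) and Bcl2a1d (0.0875). Nearest to Irf7 were Slfn5 (0.187), Dhx58 (0.227) and Xaf1 (0.274), genes known to be raised by interferon. Slfn5 was at 223 and 280 normalized counts with dopamine and at 538 and 796 with PBS, and so shared the high PBS B value of Irf7. Nearest to Irf9 were Cerk (0.0284), Lrig1 (0.0357) and Tmem59 (0.0466). Of 8222 genes, Irf8 was number 155 by distance from Irf4, and Irf4 was number 37 from Irf8. Irf9 was number 615 from Irf7, but Irf7 was number 7942 from Irf9, at the same distance of 1.05. With 4 libraries such distances describe these libraries only.

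The genes through which the family is induced and acts were described next by lists written from memory. Earlier results of these data were known when the lists were written. Their counts and medians are therefore a description, and their distance from the background is no independent evidence. Of the interferon genes on the list, 4 of 12 had a row, and Ifng, which induces Irf1, was called higher, at 239 and 244 normalized counts with dopamine against 61.2 and 59.0 with PBS. Ifnb1, a type I interferon, was near 0, at 0 and 1.94 normalized counts with dopamine and 1.70 and 10.7 with PBS. Of 6 interferon receptor chains, Ifngr1 was called lower, at 595 and 669 with dopamine against 1018 and 1125 with PBS, and Il10rb was called higher with a log2 fold change of 0.41. The Il10rb call was lost without PBS A, PBS B or dopamine B, in edgeR with TMM scaling, in DESeq2 and after rescaling on abundant genes. Ifnar1, a chain of the type I interferon receptor, was at 1460 and 1499 with dopamine and at 1451 and 1561 with PBS, and was not called.

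Most interferon-stimulated genes on the list of Irf9 targets were lower with dopamine, as Irf7 was. Of 24 on the list 19 were called lower and 1 higher, against 7.00% and 14.3% of all genes. The median log2 fold change of the list was -0.76, and that of all genes was -0.08. Ifit1, which binds viral RNA, was at 293 and 367 normalized counts with dopamine against 938 and 1221 with PBS. Rsad2, an antiviral enzyme, was at 85.6 and 92.2 with dopamine against 299 and 300 with PBS, and its PBS libraries were nearly equal, unlike those of Irf7. The log2 fold changes were -1.66 for Ifit3 and -1.26 for Samd9l. Bst2, which tethers budding virus, was the 1 called higher, at 0.53, and was not called without PBS A or dopamine B. Of the 24 genes, 22 were higher in PBS B than in PBS A, with a median log2 difference of 0.26, and 21 were higher in dopamine B than in dopamine A, with a median of 0.15. Over abundant genes, 70.1% were higher in PBS B than in PBS A. Without PBS B 13 of the 24 were called lower.

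The JAK-STAT relay between interferon receptors and Irf9 had 5 of 15 genes called higher and 3 lower. Of abundant genes, 39.1% were called higher and 7.90% lower. The median of the relay was -0.04, against 0.20 over abundant genes. Stat2, a partner of Irf9, was at 798 and 912 normalized counts with dopamine against 1038 and 1324 with PBS (log2 fold change -0.46), and was not called without PBS B. Usp18, which dampens the receptor and is itself raised by interferon, fell by 1.22 on the log2 scale. Stat4, which relays IL-12 signals, rose by 0.62. Socs1, an inhibitor of JAK kinases, rose by 0.61, a call lost without PBS A. Without PBS A 1 of the 15 genes was called higher, without PBS B 1 was called lower, and without PBS B, dopamine A or dopamine B 3 were called higher. After rescaling on abundant genes 2 were called higher and 8 lower, with a median of -0.24.

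Of 25 sensors and kinases that activate Irf3, Irf5 and Irf7, 7 were called higher and 4 lower, against 39.1% and 7.90% of abundant genes. The median of the list was 0.15, against 0.20 over abundant genes. The lower genes included the RNA sensor Ddx58 (log2 fold change -0.74) and its relative Dhx58 (-1.06). The higher genes included Tbkbp1, an adaptor of the kinase Tbk1 (1.08), Chuk (0.47) and Myd88, the adaptor of Toll-like receptors (0.40). Tbk1 and Ikbke, the kinases that phosphorylate Irf3 and Irf7, had log2 fold changes of 0.17 and 0.03 and were not called. Without dopamine B 4 of the 25 were called higher, and after rescaling on abundant genes 3 were called higher and 5 lower, with a median of -0.04.

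Of 18 genes of the antigen receptor relay upstream of Irf4, 10 were called higher and 2 lower, with a median of 0.29, against 39.1% higher, 7.90% lower and a median of 0.20 over abundant genes. After rescaling on abundant genes 6 were called higher and 3 lower, with a median of 0.10, and in edgeR with TMM scaling 7 were called higher and 2 lower, with a median of 0.17. Nfkb2 was at 1721 and 1794 normalized counts with dopamine against 736 and 835 with PBS. Malt1, the protease of the relay to NF-kB, was at 6489 and 6320 with dopamine against 3800 and 3967 with PBS. Relb rose by 0.73 and Nfkb1 by 0.47 on the log2 scale. Rel, the NF-kB subunit known to act on Irf4 in lymphocytes, was at -0.09 and was not called. The subunit Rela, at 0.33, was also not called. Plcg1, the phospholipase of the relay, fell by 0.50. Without dopamine B 6 of the 18 were called higher, and without PBS B 1 was called lower.

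DNA-binding partners of Irf4 and Irf8 were called higher in 6 of 13 cases and lower in 0, with a median of 0.34, against 39.1% higher, 7.90% lower and a median of 0.20 over abundant genes. After rescaling on abundant genes 5 were called higher and 1 lower, with a median of 0.15. Junb was at 1560 and 1689 normalized counts with dopamine against 695 and 677 with PBS. Batf, which joins Jun proteins and Irf4 on composite DNA sites, was at 573 and 603 with dopamine against 328 and 326 with PBS. Fosl2 rose by 0.81 on the log2 scale, and Batf3, at under 40 normalized counts in every library, rose by 2.06.

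Of 14 T cell genes listed as linked to Irf4, 9 were called higher and 3 lower, against 39.1% and 7.90% of abundant genes. This list too was written with earlier results of these data known. The median of the list was 1.09, against 0.20 over abundant genes. After rescaling on abundant genes 9 were called higher and 4 lower, with a median of 0.89. Gzmb, a cytotoxic granule protease, was at 7747 and 7280 normalized counts with dopamine against 460 and 503 with PBS. The Th2 cytokine Il4 was at 784 and 723 with dopamine against 178 and 151 with PBS, and Il13 rose by 1.61 on the log2 scale. Markers of cytotoxic cells did not all move with these genes. Cd8a, a CD8 T cell marker, was called higher, at 116 and 103 normalized counts with dopamine against 30.6 and 24.5 with PBS, and Cd8b1 was not called, at 93.3 and 103 against 76.4 and 70.5. Of 4 natural killer cell markers 1 was called higher and 0 lower, against 14.3% and 7.00% of all genes. The 1 called higher was Eomes, also made by CD8 T cells, at 295 and 283 with dopamine against 139 and 133 with PBS. The other natural killer cell markers were each at 13.6 or fewer normalized counts in every library. Their log2 fold changes were negative, at -0.49 for Ncr1, -1.16 for Klrb1c and -0.20 for Klre1. The part of these cells in the list's values was not tested. The 3 lower genes of the list were the glucose transporter Slc2a3 (-1.52), the costimulator Icos (-1.35) and the inhibitory receptor Ctla4 (-1.02). Of 20 genes known as Irf1 targets, 10 were called higher and 3 lower, with a median of 0.26, against the same 39.1%, 7.90% and 0.20 over abundant genes. After rescaling on abundant genes 5 were called higher and 3 lower, with a median of 0.066, and in edgeR with TMM scaling 8 were called higher and 3 lower, with a median of 0.10. Il12rb1, an IL-12 receptor chain, was at 973 and 1069 with dopamine against 272 and 319 with PBS. Gbp2 rose by 0.69, Cd274 by 0.53 and Gbp4 by 0.35, while Gbp7, Nlrc5 and B2m fell by 0.37, 0.30 and 0.13. Without PBS A 4 of the 20 were called higher, and without PBS B 1 was called lower. Of 10 proteins that bind or modify IRF proteins, 4 were called higher and 2 lower, against 39.1% and 7.90% of abundant genes. Def6, a partner of Irf4, was at 0.63 and Trim21, a ubiquitin ligase, at -0.38. The median of the 10 was 0.16, against 0.20 over abundant genes, and -0.03 after rescaling on abundant genes. Without PBS B or without dopamine A 1 of the 10 was called lower.

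**Figure D4:**
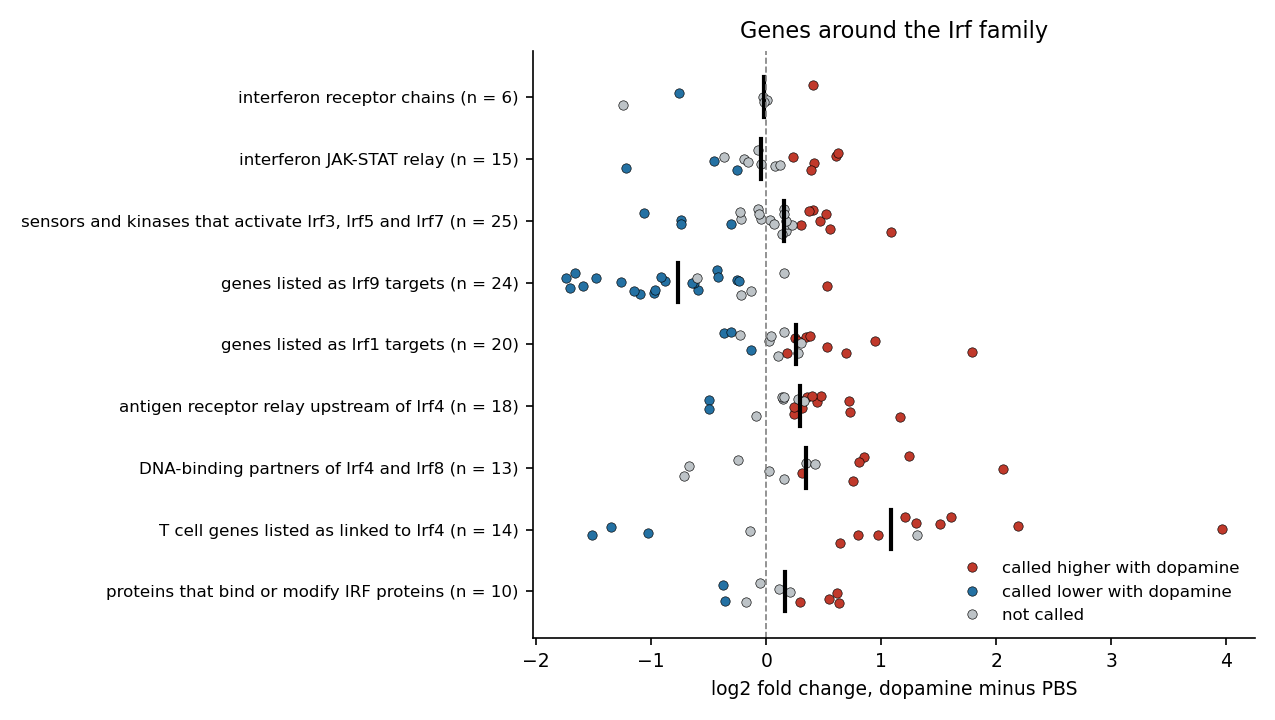
Log2 fold change, dopamine minus PBS, of each gene on the lists around the Irf family other than the interferons, coloured by call, with a bar at the median of each list. The interferon-stimulated genes listed as Irf9 targets have a median of -0.76, and the T cell genes listed as linked to Irf4 have a median of 1.09. The lists were written with earlier results of these data known.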

How the data were processed

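RNA-seq of 4 libraries, 2 per group, was analysed from 1 deposited table. Per the submitters' processing notes, FastQC 0.11.2, TopHat2 2.0.13, HTSeq 0.6, DESeq2 and R 3.6.2 were used with build mm10. The sources used here do not give the annotation or the strand setting. The deposited values are normalized counts, a signal that the authors scaled by library size factors. The authors' deposited table also holds their log2 fold changes, a test score and p-values. Dividing each column by its step gave whole reads for 100% of values (tolerance 0.01). The table's columns are numbered differently from the titles, so each was matched to its group only. Of its gene names, 26 had been turned into dates, and the fewest reads of any gene were 8.

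Limma 3.58.1 (R 4.3.3) with a mean-variance trend was fitted to log2(value + 1), without a filter, on 26207 genes, 2-sided, at an adjusted p of 0.05. On the recovered reads, edgeR 4.0.16 (quasi-likelihood, TMM) called 5219 of 15329 genes and DESeq2 1.42.0 called 3261. The authors' deposited values give no adjusted p for 13210 genes. Other alternatives were other scalings, a minimum of 5 CPM, a pseudocount of 0.1, a replicate block and leaving out each library. The scripts were tested on simulated data.

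All 8 members were named whatever their p, with up to 4 called genes of smallest p per list, genes whose role a sentence turns on, the 3 nearest profiles and markers of other cell types. Members and lists were chosen with earlier results of these data known, and the lists were written from memory. They are described by counts and medians, with no set test. Promoters are from RefSeq and gene positions from GENCODE M21. Some genes counted in the lists are not reported here by name.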

Additional observations from a re-analysis of the deposited data

How the results depend on the processing

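All 13 alternatives kept the sign of all 8 members, and Irf4, Irf8 and Irf7 kept their calls. With edgeR and TMM scaling, Irf1 (0.090) and Irf5 (0.41) were no longer called and Irf9 was called lower (-0.35), giving 3 members higher and 2 lower. After rescaling on abundant genes, Irf1 (0.0025), Irf3 (0.14) and Irf5 (0.31) were not called and Irf2 (-0.39) and Irf9 (-0.41) were called lower, giving 2 higher and 3 lower. DESeq2 did not call Irf5 (0.51) and called 3261 genes, against 5577. Irf9 alone was added, giving 2 members lower, by edgeR with DESeq2 size factors (-0.24), limma with TMM (-0.24), edgeR without a filter (-0.26) and a minimum of 5 CPM (-0.22). Leaving out 1 library at a time gave 0.14 to 0.26 for Irf1, 0.31 to 0.36 for Irf3, 0.47 to 0.53 for Irf5, -0.37 to -0.067 for Irf9, 2914 to 4299 genes called, 2 to 4 members higher and 1 to 2 lower. These fits have fewer libraries, and a lone library is assumed to vary like the other group. The causes of the other shifts were not tested.

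The columns share numbers between groups, but no source used here states whether same-numbered libraries are paired. Deviations of same-numbered libraries had r = 0.214 over 8492 genes, which are not independent. With the column number as a replicate block, Irf9 was called lower (-0.22, limma adjusted p = 0.00342), giving 2 members lower, and 6999 genes were called. The block changed no other member's call.

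With 44 to 134 reads, Irf5 had the least depth of the members. The shallowest library, PBS A, held 5717408 reads.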
